A study of Mus musculus with 4 samples.

Results

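The genes described here are 9 genes of the YAP/TEAD pathway: Ccn1, Ccn2, Ankrd1, Amotl2, Axl, Ajuba, Yap1, Tead1 and Lats2. They were chosen by name, as the probe sets that the array's annotation gives to exactly 1 of these symbols. All 9 were found, among 18193 genes with such a probe set, and they have 21 probe sets in all. RNA came from 4 cultures of p53-/- mouse fetal liver progenitor cells, with 1 Affymetrix mouse expression array for each culture. The non-transformed culture carries the p53 deficiency alone, and the other 3 carry it together with H-RasV12 (an activated small GTPase), myr-Akt (the kinase AKT1 with a myristoyl anchor that keeps it at membranes) or c-Myc, a transcription factor. All 4 cultures grew in the same medium, with 10% serum, 20 ng/ml EGF, 50 ng/ml HGF and dexamethasone. The labels used here do not say how the oncogenes were introduced, whether a culture is a clone, or how old the embryos were. Each condition is 1 array, so no difference below could be set against a spread between cultures, and no p-value can be given.

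YAP1 is a transcriptional coactivator that cannot bind DNA itself and acts through the TEAD factors, of which TEAD1 is a member. The Hippo kinases restrain it: LATS1 and LATS2 phosphorylate YAP1, which keeps it in the cytoplasm, and adaptors such as AJUBA and the angiomotins tie this step to cell junctions and the actin cytoskeleton. In the liver the pathway is known for its control of organ size and of the choice between hepatocyte and bile duct fates. CCN1, CCN2 and ANKRD1 are the target genes most often read as YAP activity, and LATS2 and AMOTL2 are targets that feed back to restrain it. YAP1 itself is controlled mainly at the protein, which an array of RNA does not measure.

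TEAD factors bind the 6 letters GGAATG, or CATTCC on the other strand, so the start regions of the members were searched for them. RefSeq promoter windows of mouse assembly GRCm38.p6, each running from 250 bases before to 50 bases after an annotated start, were matched by symbol for 7 of the 9 genes (Ccn1, Axl, Yap1, Amotl2, Ajuba, Lats2 and Ankrd1), in 8 windows. All 7 genes had the 6 letters in at least 1 window, and 7 of the 8 windows held them. Of all 32851 windows in the table, 14.7% held them. Several members were chosen as known TEAD targets, so this count is a description, and a match is not a shown binding site. Whole upstream stretches are printed for Ankrd1 and Ccn1, the gene with the widest range and a gene that all 4 of its probe sets put highest in non-transformed cells, and shorter ones around the match for the others. All run 5′ to 3′ towards the gene, and the capitals mark the 6 letters.
Ankrd1 (chr19:36119845-36120094, minus strand): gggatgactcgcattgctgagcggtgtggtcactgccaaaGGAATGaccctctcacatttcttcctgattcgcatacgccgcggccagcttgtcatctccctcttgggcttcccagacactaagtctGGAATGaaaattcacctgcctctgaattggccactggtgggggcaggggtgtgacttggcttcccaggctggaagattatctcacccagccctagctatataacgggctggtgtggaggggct
Ccn1 (chr3:145649986-145650235, minus strand): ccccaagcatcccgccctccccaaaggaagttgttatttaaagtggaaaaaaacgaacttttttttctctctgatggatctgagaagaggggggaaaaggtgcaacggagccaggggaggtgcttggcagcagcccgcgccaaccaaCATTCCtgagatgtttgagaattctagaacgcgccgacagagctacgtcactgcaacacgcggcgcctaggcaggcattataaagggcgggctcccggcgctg
Axl (chr7:25788944-25788983, minus strand): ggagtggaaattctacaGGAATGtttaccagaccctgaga
Amotl2 (chr9:102717722-102717761, plus strand): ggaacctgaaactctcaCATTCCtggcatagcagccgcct
Ajuba (chr14:54577803-54577864, minus strand): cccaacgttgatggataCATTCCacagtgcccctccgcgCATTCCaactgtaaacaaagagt
Yap1 (chr9:8004715-8004754, minus strand): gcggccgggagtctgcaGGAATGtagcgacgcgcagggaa
Lats2 (chr14:57746102-57746131, minus strand): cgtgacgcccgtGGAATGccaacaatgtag

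The match in Ccn1 begins 103 bases before the start, that in Amotl2 65 bases, that in Yap1 141 bases and that in Axl 233 bases before it. Ankrd1 has 2 matches, at 210 and 123 bases before the start, and Ajuba has 2, at 186 and 164 bases. Of all windows, 1.36% held 2 or more. The Lats2 match lies inside the transcribed part, 5 bases from the start, and the second Lats2 window held none. The TATA motif in the form TATAAA was found in Ccn1 and in no other member window, against 8.32% of all windows. Only those letters were searched, so other forms, such as tatataa in the printed Ankrd1 stretch, were not counted. AP-1 letters (TGACTCA or TGAGTCA) and the CArG box were in 0 of the 8 windows, against 5.20% and 1.63% of all.

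The values are MAS5 signals, linear intensities scaled to the same trimmed mean on each array. Signals under 100.001, which is 20% of that mean, were set to that floor. Differences are given on the log2 scale, and a gene counts as higher or lower at a log2 difference of 1 or more in size, which is 2-fold. Each gene is read from its brightest probe set, and levels are not compared between genes, because probe sets differ in how strongly they bind. All 9 members were above the floor on all 4 arrays by that probe set. Of their 21 probe sets, 17 were above it on every array, 1 on some arrays and 3 on none.

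The arrays were checked against their labels. Myc, read by 1 probe set, was at 2285 in non-transformed cells, 1747 with H-RasV12 and 639.7 with myr-Akt, and lowest, at 420.6, on the array labelled c-Myc. Akt1, by its brightest probe set, was at 1870 in non-transformed cells, 2760 with H-RasV12, 2834 with myr-Akt and 2991 on the array labelled c-Myc, so it was not highest on the array labelled myr-Akt either. No source used here says whether these probe sets detect the introduced sequences, so directions for both arrays rest on their labels. Of 10 hepatoblast markers, Afp, Alb, Ttr and Hnf4a did not pass the floor in non-transformed cells. With myr-Akt and on the array labelled c-Myc those 4 and Apoa1, Krt8 and Cdh1 were at the floor, in the latter with Epcam as well, and with H-RasV12 only Epcam was. Several defining markers of the labelled cell type thus did not pass the floor on 3 arrays. In non-transformed cells 6 of 10 hepatoblast markers were above it, beside all 5 mesothelial and 9 of 10 stellate and fibroblast markers. All 5 endothelial markers were at the floor on every array. Of 5 blood and macrophage markers, Cd68 and Csf1r passed it on some arrays, with signals of at most 145.4.

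By their brightest probe sets, Yap1 and Tead1, the coactivator and its DNA-binding partner, differed little between the cultures. The Yap1 signal was 5301 in non-transformed cells, 5636 with H-RasV12, 5018 with myr-Akt and 5777 on the array labelled c-Myc. The highest and lowest of these were 1.15-fold apart, a range smaller than that of all but 7.01% of the 10679 genes measured. Its second probe set was higher with H-RasV12 (595.8) than on the other arrays, at 431.3 in non-transformed cells, 334.4 with myr-Akt and 365.9 on the array labelled c-Myc. Between H-RasV12 and myr-Akt the log2 difference was 0.83 by that probe set and 0.17 by the brightest. The Tead1 signal was 10381 in non-transformed cells, 11957 with H-RasV12, 8603 with myr-Akt and 8850 on the array labelled c-Myc, a range of 1.39-fold. Its second probe set put non-transformed cells highest, at 356.1, with 305.4 for H-RasV12, so the direction of the H-RasV12 difference depended on the probe set.

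Lats2, which encodes a kinase that phosphorylates YAP1, was lowest on the array labelled H-RasV12. Its signal was 1888 in non-transformed cells, 746.9 with H-RasV12, 1145 with myr-Akt and 1675 on the array labelled c-Myc. With H-RasV12 it was 2.53-fold lower than in non-transformed cells (log2 difference -1.34), and 3.61% of the genes measured lay further down. The next brightest probe set had 1061, 440.4, 635.1 and 1079 in the same order of arrays, and the third had 261.1, 143.3, 188.2 and 216.8. These 3 probe sets placed H-RasV12 lowest, with differences from non-transformed cells between -1.34 and -0.87. The fourth, near the floor, read 145.6 in non-transformed cells and 153.8 with H-RasV12 a log2 difference of 0.08. The array labelled c-Myc differed from non-transformed cells by between -0.27 and 0.02 over the 3 brightest.

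Ajuba encodes a LIM-domain protein that binds LATS kinases and restrains them. Its signal was 3961 in non-transformed cells, 2614 with H-RasV12, 3940 with myr-Akt and 4130 on the array labelled c-Myc. Here too H-RasV12 was lowest, 1.52-fold below non-transformed cells, and the other 3 arrays lay close together. Amotl2, an angiomotin that holds YAP1 at junctions and is also its target, had 7311 in non-transformed cells. It had 4968 with H-RasV12, 4970 with myr-Akt and 5772 on the array labelled c-Myc. The differences from non-transformed cells were 1.47-fold, 1.47-fold and 1.27-fold, short of 2-fold. Both genes have 1 probe set, so no second reading was to be had.

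**Figure D1:**
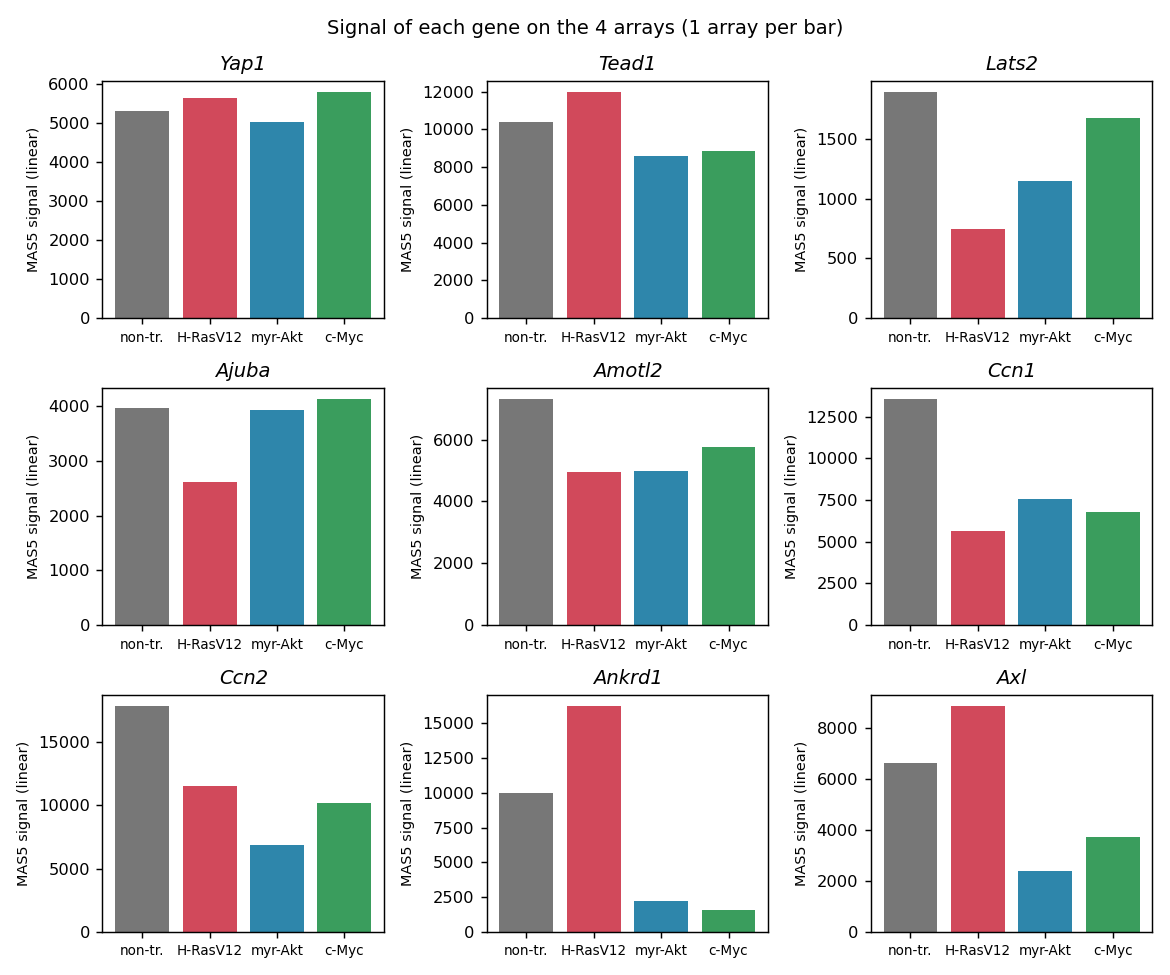
MAS5 signal (linear, from 0) of the brightest probe set of each of the 9 genes on the non-transformed (non-tr.), H-RasV12, myr-Akt and c-Myc arrays, 1 array per bar with no error to show. Yap1 stays within 1.15-fold, while Ankrd1 spans 10.3-fold, from 1586 on the array labelled c-Myc to 16257 on that labelled H-RasV12.

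Ccn1 and Ccn2 encode secreted matrix-associated proteins that bind integrins, and both were highest in non-transformed cells. The Ccn1 signal was 13557 there, 5637 with H-RasV12, 7534 with myr-Akt and 6811 on the array labelled c-Myc. The 3 transformed cultures were lower by 2.40-fold, 1.80-fold and 1.99-fold. The next probe set gave 7942, 3900, 4503 and 4823, with the same culture lowest. A dimmer pair of probe sets, both annotated to the same expressed sequence, put the array labelled c-Myc lowest instead (1292 and 1257, against 2169 and 2109 in non-transformed cells). All 4 probe sets were lower in every transformed culture than in non-transformed cells. For H-RasV12 the size ran from -1.27 to -0.28, so the size of that difference, and which transformed culture is lowest, depended on the probe set.

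Ccn2 was lowest on the array labelled myr-Akt. Its signal was 17882 in non-transformed cells, 11503 with H-RasV12, 6882 with myr-Akt and 10187 on the array labelled c-Myc. The log2 differences from non-transformed cells were -0.64, -1.38 and -0.81, of which only that of myr-Akt passed 2-fold (2.60-fold). Of the other CCN genes, Ccn3, Ccn5 and Ccn6 were at the floor on every array. Ccn4 had 3565 in non-transformed cells and was lower by 2.82-fold, 2.68-fold and 4.47-fold with H-RasV12, myr-Akt and on the array labelled c-Myc.

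Ankrd1, which encodes an ankyrin-repeat protein of muscle sarcomeres and nuclei, had the widest range of the 9. Its signal was 10007 in non-transformed cells and 16257 with H-RasV12, against 2206 with myr-Akt and 1586 on the array labelled c-Myc. The first pair of arrays was high and the second low, with no value between. Relative to non-transformed cells, H-RasV12 was 1.62-fold higher (0.70, short of 2-fold), myr-Akt 4.54-fold lower (-2.18) and the array labelled c-Myc 6.31-fold lower (-2.66). Its second probe set gave 9508, 16136, 1825 and 1443, and the 2 probe sets differed by at most 0.26 in any of the 6 comparisons between arrays. Between transformed cultures, H-RasV12 was 7.37-fold above myr-Akt and 10.3-fold above the array labelled c-Myc. Of the 10679 genes measured, 124 were further above myr-Akt with H-RasV12 and 81 further above c-Myc, not counting genes that differed the other way.

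Axl, which encodes a receptor tyrosine kinase, was also high on those 2 arrays and lower on the others. Its signal was 6638 in non-transformed cells, 8862 with H-RasV12, 2381 with myr-Akt and 3716 on the array labelled c-Myc. H-RasV12 was 1.34-fold higher than non-transformed cells, myr-Akt 2.79-fold lower (-1.48) and the array labelled c-Myc 1.79-fold lower (-0.84). H-RasV12 was 3.72-fold above myr-Akt and 2.38-fold above c-Myc. The second Axl probe set was under the floor on every array, with signals of at most 25.5, and could show no difference. Gas6, the ligand of AXL, had another order: it was at 8176 in non-transformed cells, 677.9 with H-RasV12, 3174 with myr-Akt and 3948 on the array labelled c-Myc. It was thus 12.1-fold lower on the array where Axl was highest. Of the related receptors, Mertk was 2.75-fold higher on the array labelled c-Myc (419.2 against 152.5). Pros1, a second ligand, was at least 2.16-fold lower with myr-Akt and on the array labelled c-Myc, where it was at the floor.

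**Figure D2:**
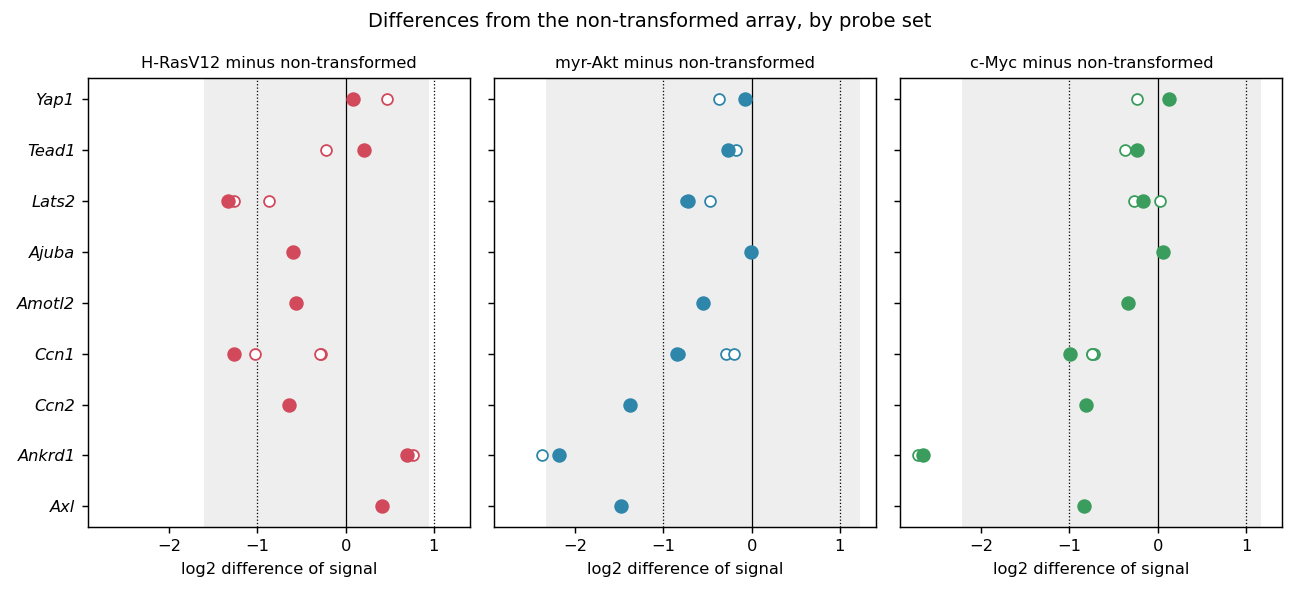
Log2 difference of signal from the non-transformed array for each gene, in 1 panel per transformed culture. Filled points are the brightest probe set and open points further probe sets above the floor on all 4 arrays, dotted lines mark 2-fold, and the grey band holds the middle 95% of all measured genes. Ankrd1 on the array labelled c-Myc (-2.66) lies outside the band, and in the H-RasV12 panel the 4 Ccn1 probe sets spread from -1.27 to -0.28.

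Counted over the 9 genes, the H-RasV12 array had 2 genes at least 2-fold lower than non-transformed cells (Ccn1 and Lats2), where 6.27% of all measured genes were. None was 2-fold higher, where 2.08% of all genes were. The myr-Akt array had 3 at least 2-fold lower (Ccn2, Ankrd1 and Axl), beside 12.7% of all genes, and 0 higher, beside 4.90%. The array labelled c-Myc had 1 lower (Ankrd1), which is 11.1% of the members beside 11.3% of all genes and so no more than the background, and 0 higher, beside 4.42%. The medians of the 9 differences were -0.56, -0.72 and -0.34, beside 0.00, -0.02 and 0.00 over all measured genes. With myr-Akt all 9 genes were below non-transformed cells, beside 51.1% of all genes, although Ajuba by only -0.01, a sign that turned when arrays were centred on their median (0.01). With H-RasV12, 5 were below and 4 above, and on the array labelled c-Myc 7 below and 2 above. These 3 comparisons share the non-transformed array, so they are not independent readings.

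Compared directly, H-RasV12 was at least 2-fold above myr-Akt for 2 of the 9 genes (Ankrd1 and Axl), beside 9.35% of all measured genes, and lower for 0, beside 4.38%. Against the array labelled c-Myc it was higher for the same 2 genes by name, beside 8.76%, and lower for 1, Lats2 (2.24-fold), beside 5.11%. Between myr-Akt and the array labelled c-Myc, 0 genes differed by 2-fold, beside 1.53% higher and 2.01% lower among all genes. The widest difference between these last cultures was that of Axl, at -0.64, and 5.32% of all genes lay further down.

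Markers of other liver cell types also differed between these arrays. The stellate and fibroblast markers had 4 of 9 measured genes at least 2-fold lower with H-RasV12, 5 with myr-Akt and 6 on the array labelled c-Myc, beside 6.27%, 12.7% and 11.3% of all measured genes. Of the 5 markers above the floor on all 4 arrays, 3 were at least 2-fold lower with H-RasV12, 1 with myr-Akt and 2 on the array labelled c-Myc. Their summed signal was 107740 in non-transformed cells, 58808 with H-RasV12, 62622 with myr-Akt and 50247 on the array labelled c-Myc. Such sums follow the brightest probe sets and do not measure the amount of a cell type. Acta2 alone was at 33456, 26471, 19539 and 25390 in that order. Pdgfrb, Pdgfra and Thy1 were at the floor with myr-Akt and on the array labelled c-Myc, and above it on the other 2. Dcn and Col3a1 of the same list went the other way: Dcn was at 172.2 with H-RasV12 against 9524 with myr-Akt and 7765 on the array labelled c-Myc, and Col3a1 was 2.88-fold and 2.13-fold lower with H-RasV12 than on those arrays. The mesothelial markers summed to 44940, 10183, 27889 and 26834 in the same order. At least 2-fold lower were 5 of 5 with H-RasV12 and 1 of 5 in each of the others, Msln, beside 6.27%, 12.7% and 11.3% of all measured genes. By any size, 4 of 5 were below non-transformed cells with myr-Akt and 4 of 5 on the array labelled c-Myc. The hepatoblast markers summed to 5305, 20463, 833.5 and 2466, and 7 of 10 were at least 2-fold higher with H-RasV12, beside 2.08% of all genes. The largest part of the H-RasV12 sum was Krt18, at 10745. On the array labelled c-Myc most of the sum was Dlk1, at 1898 against 116.7 in non-transformed cells, with 8 of the 10 markers at the floor. Their part in the differences of the 9 genes was not tested. In RNA of a whole culture, fewer cells of a type and less RNA per cell cannot be told apart.

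Of 10 coactivators, TEAD factors and VGLL cofactors, 8 were measured, with medians of 0.02, -0.28 and -0.29 against non-transformed cells for H-RasV12, myr-Akt and c-Myc. Wwtr1, which encodes the YAP1 paralogue TAZ, had 7481 in non-transformed cells, 7261 with H-RasV12, 5615 with myr-Akt and 5840 on the array labelled c-Myc, so myr-Akt was 1.33-fold below non-transformed cells. Tead2 was lowest in non-transformed cells (747.2) and lay at 1072, 951.8 and 998.5 in the others. Tead3 had 273.1 there and 192.2, 223.0 and 205.1 in the others, and Tead4 passed the floor with H-RasV12 alone (159.5). Vgll3, a cofactor that competes for TEAD factors, was the 1 gene of this list past 2-fold: 3866 in non-transformed cells, 1296 with H-RasV12 (2.98-fold lower), 1008 with myr-Akt (3.84-fold lower) and 2317 on the array labelled c-Myc (1.67-fold lower). Vgll4, a TEAD corepressor, had 883.7, 585.6, 532.8 and 655.9. Vgll1 and Vgll2 were at the floor throughout. The list thus had 1 of 8 genes at least 2-fold lower with H-RasV12, 1 with myr-Akt and 0 on the array labelled c-Myc. Of all measured genes, 6.27%, 12.7% and 11.3% were lower by that much.

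Of 15 Hippo kinases and their activators, 14 were measured, and Lats2 with H-RasV12 was the only difference of 2-fold or more from non-transformed cells. That is 1 of 14 lower with H-RasV12, near the 6.27% of all measured genes. With myr-Akt and on the array labelled c-Myc 0 were lower, beside 12.7% and 11.3%. The medians of the list were 0.10, -0.15 and -0.16. Lats1, the paralogue of Lats2, had 1773 in non-transformed cells and 2247, 1845 and 1795 in the others, so it was highest on the array where Lats2 was lowest. Sav1, the scaffold of the MST kinases, Mob1b, a LATS cofactor, and Frmd6, an upstream activator, were at least 2-fold higher with H-RasV12 than with myr-Akt, by 2.74-fold, 2.31-fold and 2.97-fold. That is 3 of 14, beside 9.35% of all measured genes. These 3 genes and Lats1 were singled out after their values were seen. Of 17 junction proteins and adaptors, 14 were measured, with medians of -0.03, -0.14 and -0.14. Amotl1, an angiomotin, was 4721 in non-transformed cells and 4044 with H-RasV12, but 1469 with myr-Akt and 1472 on the array labelled c-Myc, both 3.21-fold lower. Dlg5, a scaffold of the cell cortex, had 1047, 1865, 356.1 and 285.6, so it was 2.94-fold and 3.66-fold lower on the same 2 arrays. Of the 14 measured genes, 2 were thus at least 2-fold lower on each of those arrays, a share near the 12.7% and 11.3% of all measured genes. With H-RasV12, 0 were lower, beside 6.27%. In Amotl1 and Dlg5, as in Ankrd1 and Axl, non-transformed and H-RasV12 cells were high and the other cultures low.

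Target genes beyond the 9 were read from a 22-gene list of YAP and TAZ targets, written from general knowledge of the literature with earlier results of these data known, of which 6 are members and 16 are not. All 16 were measured. With H-RasV12, 5 of the 16 lay 2-fold or more below non-transformed cells and 0 above (median log2 difference -0.21), with myr-Akt 7 and 0 (-0.93), and on the array labelled c-Myc 5 and 0 (-0.39). Of all measured genes, 6.27%, 12.7% and 11.3% were lower by that much in these comparisons, and 2.08%, 4.90% and 4.42% higher. Nt5e was lower in all 3, and Myof, Dock5 and Nuak2 both with myr-Akt and on the array labelled c-Myc. With H-RasV12 they were Rbms3, an RNA-binding protein gene (4.25-fold), Tgfb2, a TGF-beta ligand (3.22-fold), Ccdc80 (2.77-fold), Gadd45a, a DNA damage response gene (2.33-fold), and Nt5e, the ectonucleotidase CD73 (at least 2.05-fold). Tgfb2 was in contrast 1.76-fold higher with myr-Akt, at 2458 against 1397 in non-transformed cells and 433.6 with H-RasV12. With myr-Akt the lower genes were Myof, a membrane repair protein gene (3.26-fold), Dock5 (2.86-fold), Nuak2, a kinase gene (2.82-fold), Ccdc80 (2.75-fold), Igfbp3 (2.57-fold), Asap1 (2.31-fold) and Nt5e (at least 2.05-fold). On the array labelled c-Myc they were Dock5 (3.59-fold), Gadd45a (3.19-fold), Myof (3.18-fold), Nuak2 (2.99-fold) and Nt5e (at least 2.05-fold). The 5 others of the 16 (F3, Crim1, Fjx1, Ptpn14 and Arhgef17) and Foxf2 stayed under 2-fold in all 3 comparisons with non-transformed cells. For Fjx1 and Foxf2, at 111.6 and 137.3 in non-transformed cells, the floor was so near that no 2-fold fall could be counted.

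Direct comparison of the transformed cultures split the 16 targets. Between H-RasV12 and myr-Akt, 4 were at least 2-fold higher with H-RasV12 and 3 lower, beside 9.35% and 4.38% of all measured genes. Myof was 4.28-fold higher (2817 against 658.4), Igfbp3 2.47-fold, Asap1 2.07-fold and Foxf2 2.00-fold, and Tgfb2 was 5.67-fold lower, Rbms3 3.27-fold and Gadd45a 2.03-fold. Between H-RasV12 and the array labelled c-Myc, Myof (4.17-fold) and Foxf2 (at least 2.5-fold) were higher and Rbms3 (4.47-fold), Tgfb2 (4.29-fold) and Ccdc80 (2.21-fold) lower, beside 8.76% higher and 5.11% lower of all genes. Myof thus had the split of Ankrd1 and Axl, while Rbms3 and Tgfb2 were lowest with H-RasV12, as Lats2 was.

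Ankrd1, Ccn1 and Ccn2 are also known to respond to SRF and its actin-sensing cofactors, the MRTF proteins, so genes of that system were read as well. Of 13, all measured, 3 were at least 2-fold lower with H-RasV12, 8 with myr-Akt and 5 on the array labelled c-Myc, and 0 higher in any of these comparisons. The shares of all measured genes that were lower were again 6.27%, 12.7% and 11.3%, and 2.08%, 4.90% and 4.42% were higher. The medians were -0.19, -1.05 and -0.64. Actg2, a smooth muscle actin gene, had 2832 in non-transformed cells, 547.6 with H-RasV12, 235.1 with myr-Akt and 185.9 on the array labelled c-Myc. Myl9, a myosin light chain gene, had 9849, 4284, 1295 and 1528, and Cnn1, the calponin gene of smooth muscle, 5604, 2328, 872.7 and 1187. These 3 genes had another order than Ankrd1, since H-RasV12 lay between the non-transformed and the other arrays. Cnn2 (13956, 16595, 6759 and 6383) had the order of Ankrd1. Tpm2 (18788, 20078, 9095 and 9239) was also highest with H-RasV12, but lowest with myr-Akt. Mrtfa itself had 2213, 2442, 966.2 and 1290 and was 2.29-fold lower with myr-Akt, and Tagln and Vcl were 2.34-fold and 2.04-fold lower there. The other regulators among the 13 differed from Mrtfa. Srf had 1074, 1119, 1457 and 1551, so it was 1.36-fold higher with myr-Akt and 1.44-fold higher on the array labelled c-Myc. Mrtfb had 1588, 1660, 1436 and 1847. Acta2, which is also in the stellate and fibroblast list, Tpm1 and Flna stayed under 2-fold in each comparison with non-transformed cells.

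**Figure D3:**
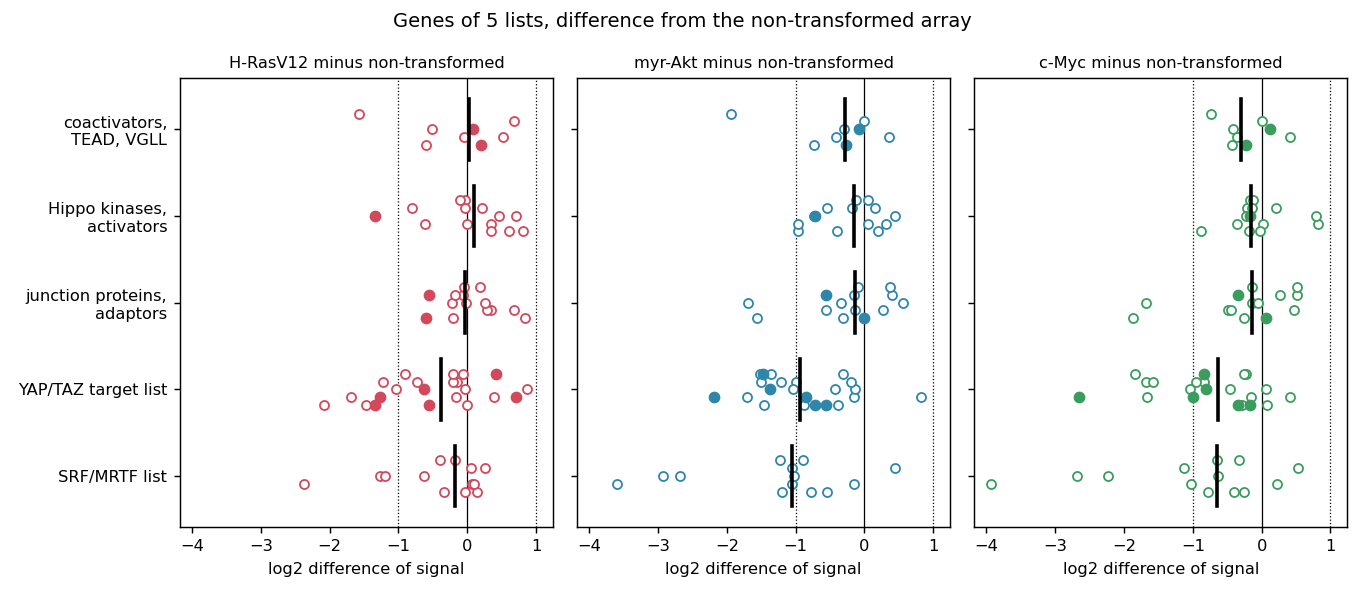
Log2 difference of signal from the non-transformed array for the measured genes of 5 lists, 1 panel per transformed culture. Each point is a gene, filled where it is 1 of the 9, the black bar is the list's median and dotted lines mark 2-fold. The medians of the target list (-0.38, -0.93 and -0.63 for all 22 genes) lie left of those of the kinase list (0.10, -0.15 and -0.16).

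Finally, the genes with the profile most like that of each member were found, for the 5 members with a range of 2-fold or more. Likeness was the root mean square distance between log2 profiles centred on their mean over the 4 arrays, among 8611 genes above the floor on all of them (8612 for Lats2). Only 4 arrays set these profiles, so close matches are common, and the names are a description. Nearest to Ankrd1 were Plekha2 (distance 0.09) and Tinagl1 (0.12), with Plekha2 at 3179, 5177, 602.5 and 459.4 from non-transformed through H-RasV12 and myr-Akt to c-Myc. Nearest to Axl were Adam9, a membrane metalloprotease gene (0.07), and Bex2 (0.08). Nearest to Ccn1 were Cysltr1, a leukotriene receptor gene (0.05), and Col4a5, a basement membrane collagen gene (0.05), and nearest to Ccn2 were Galnt10 and Rcn3 (both 0.04). Nearest to Lats2 were Ppp1r9a and the fibrillar collagen gene Col5a2 (both 0.06). The members were not each other's nearest genes: Axl lay at 0.81 from Ankrd1, as the gene ranked 297 by nearness, and Ccn2 at 0.42 from Ccn1, ranked 1513.

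**Figure D4:**
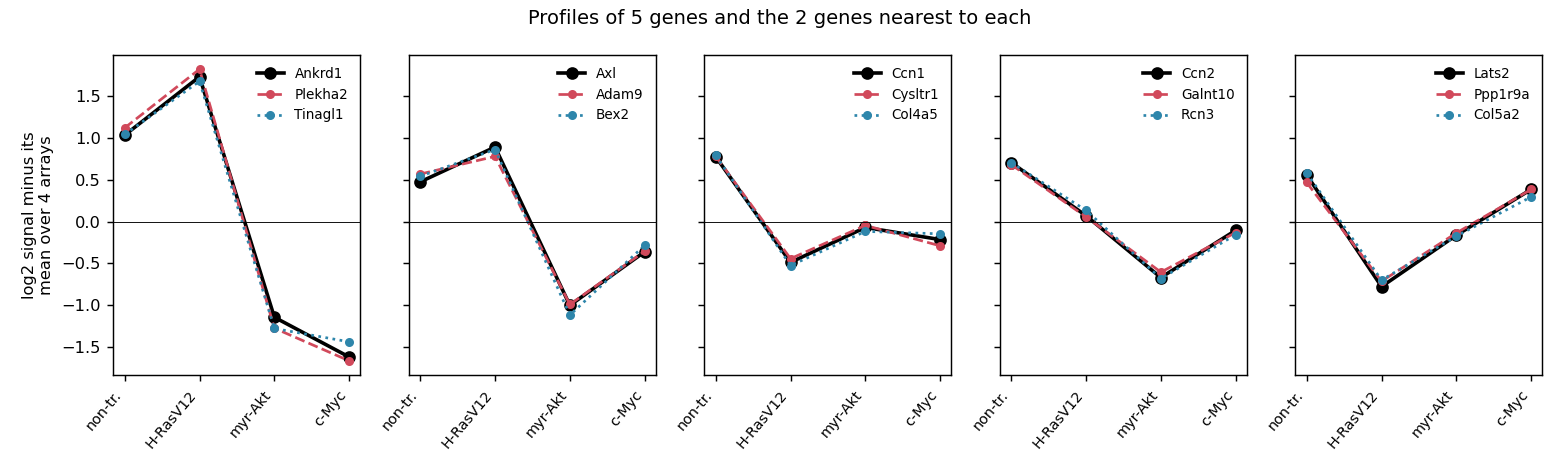
Log2 signal minus its mean over the 4 arrays for Ankrd1, Axl, Ccn1, Ccn2 and Lats2 (black) and for the 2 genes nearest to each (red dashed and blue dotted), against the array. Ankrd1 and Axl peak with H-RasV12, where Ccn1 and Lats2 are lowest, and Ccn2 is lowest with myr-Akt.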

How the data were processed

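The deposited values are linear intensities per probe set. The submitters' processing notes name MAS5 as the authors' method, and its version, detection calls and filters are not stated there. The 2% trimmed mean was 500.003 on all 4 arrays. From 45101 probe sets, 64 controls were left out. The platform annotation gave 1 symbol to 34945 others, and 932 with several symbols were not used to name genes. No symbol changed through RefSeq gene identifiers. Arrays were brought to 1 trimmed mean, signals under 20% of it were raised to that floor, and values were put on the log2 scale. The brightest probe set stood for a gene. Genes above the floor on at least 1 array (10679, of which 8965 on all) were the background.

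The members and lists were chosen with earlier results of these data known. Named were all members, coactivators and TEAD factors, and other listed genes past 2-fold on any array, with some that stayed under it. Also named were the 2 nearest profiles of each member with a range of 2-fold or more. Predicted genes and genes sharing a probe set were left out of these profiles. With 1 array per group, no test was run, and precision is limited by the number of arrays. No scan date or batch was given, so batch and condition cannot be told apart. Counting was tested on simulated data. Alternatives were floors at 10% and 40%, a pseudocount, quantile normalization, median centring, other probe sets and a stricter filter. Python 3.11.15, pandas 2.3.3, numpy 2.4.6 and matplotlib 3.10.9 were used.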

Additional observations from a re-analysis of the deposited data

Results flagged for a closer look

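A probe set that the annotation gives to Lats2 together with a second gene was not used above. Its signal was higher than in non-transformed cells (197.9) on every transformed array: 254.4 with H-RasV12, 404.9 with myr-Akt (2.05-fold) and 422.0 on the array labelled c-Myc (2.13-fold). It went the other way from the 3 brightest probe sets of Lats2 alone with H-RasV12 and myr-Akt. Which of the 2 genes it read was not tested.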

How the results depend on the processing

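A pseudocount and quantile normalization left every count of the 9 genes past 2-fold as it was. Floors at 10% and 40% and the stricter filter could not change these counts. The lowest signal of any member by its brightest probe set, 746.9 for Lats2 with H-RasV12, was above each of those floors. With median centring the array labelled c-Myc had 2 genes lower in place of 1, as Ccn1 reached -1.01. With the mean over probe sets, the H-RasV12 array had 0 lower in place of 2 against non-transformed cells, myr-Akt 2 lower in place of 3, and H-RasV12 1 higher in place of 2 against myr-Akt, and 1 higher and 0 lower in place of 2 and 1 against the array labelled c-Myc. That mean takes in probe sets at the floor on every array, which hold no difference: 1 of the 2 of Axl and 2 of the 6 of Lats2. Ccn1 has no such probe set, as all 4 were above the floor on every array. Its probe sets differed from non-transformed cells with H-RasV12 by -1.27, -1.03, -0.28 and -0.29, with a mean of -0.72. The Lats2 probe sets above the floor on those arrays also disagreed, at -1.34, -1.27, -0.87 and 0.08. Only 5 of the genes have a next brightest probe set above the floor. By it, myr-Akt had 1 lower, where the main count was 3. H-RasV12 had 1 higher against myr-Akt and 1 against the array labelled c-Myc, where each main count was 2. The gene was Ankrd1 each time. Ccn2 and Axl, the other genes of those main counts, had no second probe set above the floor, so they could not be read again. No difference of 2-fold or more among the members changed sign. Over all 354 values of single members under the alternatives, 333 kept their side of 2-fold and their sign. Of the rest, 6 dropped under 2-fold, 1 passed it and 14 small differences changed sign. The 333 include 54 values from each of the floors at 10% and 40%, which could not differ. With the mean over probe sets 43 values were kept, 6 dropped under 2-fold and 5 changed sign. With the next brightest probe set 23 were kept and 7 changed sign. For the 22 target genes, the mean over probe sets gave 4 lower in place of 7 with H-RasV12 and 6 in place of 10 with myr-Akt. The next brightest probe set was measured for only 12 of them, so its counts cover fewer genes. It gave 4 lower with myr-Akt and 2 on the array labelled c-Myc, where all 22 genes had 10 and 6. With the floor at 40% the median over these target genes was -0.21 in place of -0.38 with H-RasV12 and -0.34 in place of -0.63 on the array labelled c-Myc. Fjx1, with signals of at most 111.6, was not measured at that floor. Nt5e, at 204.9 in non-transformed cells and at most 65.3 elsewhere, hardly passed it. Of the 13 SRF and MRTF genes, only 6 were measured by the next brightest probe set. By it, 1 was at least 2-fold lower with H-RasV12, 2 with myr-Akt and 2 on the array labelled c-Myc. For all genes, a pseudocount gave 136 higher in place of 222 with H-RasV12 and 298 in place of 472 on the array labelled c-Myc, and the mean over probe sets gave 436 lower in place of 670 with H-RasV12. No paired analysis was possible because each group holds 1 array.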
